A study of Macaca mulatta with 6 samples.

Results

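The circadian clock genes measured here were BHLHE40, BHLHE41, PER1, PER2, PER3, CRY2, ARNTL (also called BMAL1), CLOCK and NR1D1. They were taken by name from a list of 10 clock genes, and 15 of the 52024 probe sets on the array carried their symbols, for 9 of the 14132 named genes. CRY1, the tenth gene of the list, is not analysed here, since no probe set was matched to it. BHLHE40, BHLHE41, PER2, PER3, ARNTL and NR1D1 had 2 probe sets each, and PER1, CRY2 and CLOCK had 1. Each gene is described first by the probe set that was brightest on average over the 6 arrays, and then by the other one.

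The treated retinas came from the eyes of 3 adult male rhesus macaques whose intraorbital optic nerve on that side had received 15 Gy by gamma knife surgery, and the control retinas came from the opposite eyes of the same animals. All 6 retinas were collected 24 h later, and RNA of the temporal retina, dissected free of pigment epithelium, was hybridized to 1 Affymetrix Rhesus Macaque Genome Array per retina. No genetic change is described for the animals, and the study states that a lower dose also reached the eyeballs on both sides, more on the treated side, so direct dose to the retina and injury of the nerve cannot be told apart. The animals were kept under a light-dark cycle, and the sources used here do not give the clock time at which the retinas were removed.

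The clock of mammalian cells is a loop of transcription factors and their inhibitors. CLOCK and ARNTL bind E-box sequences as a pair and switch on the PER and CRY genes, whose proteins return to the nucleus and block that pair. BHLHE40 and BHLHE41 bind the same E-boxes as repressors, and NR1D1 represses ARNTL, so levels of these transcripts change over the day. The retina holds a clock of its own, which times dopamine and melatonin release, and BHLHE40 is also known as a gene induced by many kinds of stress, by cytokines and by low oxygen.

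Values are log2 MAS5 signals, so a difference of 1 is a 2-fold change. A signal depends on the probes as well as on the transcript, and levels of different probe sets are not on 1 scale. The median log2 signal per array was 6.44 to 6.98 in treated retinas and 6.69 to 7.03 in control retinas. Markers of rods had mean log2 signals between 13.94 and 15.43 and those of bipolar cells between 8.02 and 13.07, and none was at the floor of 0 on any array. In tissue RNA, fewer cells of a type and less RNA per cell cannot be told apart. All p-values rest on 3 animals.

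BHLHE40 had the smallest p of the clock genes between treated and control retinas in limma, though it did not pass after adjustment, and by the methods' t-test ARNTL had a smaller one. Its brightest probe set had log2 signals of 11.09, 11.17 and 10.85 in the treated retinas of replicates 1 to 3, against 10.63, 10.40 and 10.36 in the control retinas. All 3 treated retinas lay above all 3 control retinas. The means were 11.04 ± 0.17 in treated retinas and 10.46 ± 0.15 in control retinas (SD, n = 3 each), a log2 fold change of 0.57 (SE 0.10, 95% interval 0.33 to 0.82), or 1.49-fold. The difference was 0.46, 0.77 and 0.49 in the 3 pairs. It had an unadjusted p of 0.00071 and did not pass after adjustment over all probe sets (adjusted p = 0.223, limma with Benjamini-Hochberg adjustment). The study itself lists BHLHE40 among its retinal ganglion cell (RGC) genes on these samples, so its direction here is not independent evidence.

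**Figure D1:**
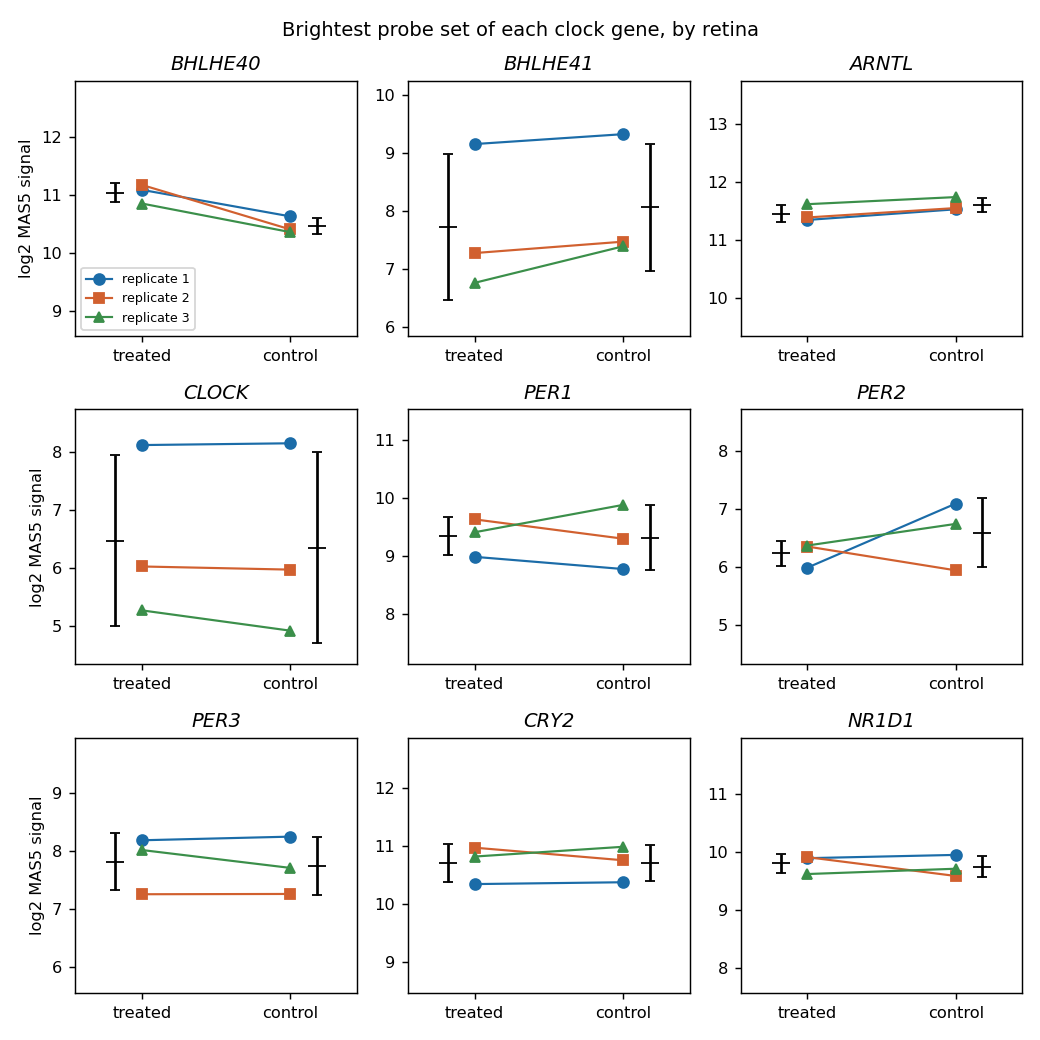
Log2 MAS5 signal (y axis, the same span in each panel) of the brightest probe set of each gene in treated and control retinas (x axis), with lines joining both retinas of a replicate number and black bars for the mean and SD of 3 retinas. The treated BHLHE40 signals of 10.85 to 11.17 lie above the control signals of 10.36 to 10.63. For BHLHE41 and CLOCK the sides overlap, and both retinas of replicate 1 lie above the rest.

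The second BHLHE40 probe set gave a less regular picture. It stood at 8.73, 7.18 and 6.59 in treated retinas, against 8.57, 6.28 and 6.63 in control retinas. The groups overlapped, and both retinas of replicate 1 were far above the rest. Its log2 fold change of 0.34 (SE 0.28, 95% interval −0.31 to 0.98) had the same sign as that of the brightest probe set, and it was higher in 2 of 3 pairs (adjusted p = 0.809, limma).

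BHLHE41, the close relative of BHLHE40 and likewise a repressor at E-boxes, did not pass the test. Its brightest probe set gave 9.15, 7.27 and 6.76 in treated retinas, against 9.33, 7.47 and 7.39 in control retinas. As deposited, each treated retina was below the control retina of the same animal, but the groups overlapped almost fully. The log2 fold change was −0.33 (SE 0.20, 95% interval −0.80 to 0.14, adjusted p = 0.754, limma). With arrays centred on their median, the pair differences of BHLHE41 by this probe set were −0.12, 0.11 and −0.69. Its dim second probe set, with signals of 5.65, 3.19 and 2.67 in treated retinas and 5.51, 3.42 and 5.49 in control retinas, stood at −0.97 (SE 0.83), and most of that came from replicate 3. The difference between the changes of BHLHE40 and BHLHE41 was not tested.

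Of the activator pair, ARNTL was slightly lower in each treated retina as deposited. Its brightest probe set gave 11.35, 11.39 and 11.62 in treated retinas, against 11.53, 11.56 and 11.74 in control retinas. The pair differences were −0.18, −0.16 and −0.12, while the groups overlapped. With arrays centred on their median they were −0.13, 0.14 and −0.18, and the log2 fold change was −0.059 (unadjusted p = 0.699, limma), so the order within pairs depended on the scaling. The log2 fold change was −0.16 (SE 0.09, 95% interval −0.36 to 0.046, adjusted p = 0.753, limma), and the methods' t-test, run over pairs, put it under 0.05 before adjustment but not after it. The second ARNTL probe set, at 10.03, 7.55 and 8.17 in treated retinas and 10.21, 8.45 and 8.31 in control retinas, was also lower in 3 of 3 pairs (log2 fold change −0.41, SE 0.19, adjusted p = 0.751, limma).

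CLOCK, the partner of ARNTL, showed no such order. Its single probe set gave 8.13, 6.03 and 5.27 in treated retinas, against 8.16, 5.98 and 4.92 in control retinas. Both sides of an animal differed by at most 0.35, whereas the animals lay far apart. The log2 fold change of 0.12 had a 95% interval of −0.70 to 0.95 (SE 0.35, adjusted p = 0.954, limma), so a change of that size in either direction would not have been detectable.

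Among the genes of the negative limb, PER1, a period gene that responds quickly to light and hormones, was at 8.99, 9.64 and 9.41 in treated retinas, against 8.78, 9.30 and 9.88 in control retinas. The treated retina was the higher in replicates 1 and 2 and the lower in replicate 3, for a log2 fold change of 0.024 (SE 0.17, 95% interval −0.38 to 0.43, adjusted p = 0.984, limma). PER2, which binds the activator pair together with CRY proteins, gave 5.99, 6.35 and 6.37 in treated retinas, against 7.10, 5.94 and 6.75 in control retinas. Its fold change was −0.36 (SE 0.41, adjusted p = 0.870, limma) and was negative in 2 of 3 pairs. The other PER2 probe set was dim, with 5.91, 2.61 and 4.42 in treated retinas and 5.996, 3.62 and 4.99 in control retinas, and stood at −0.56 (SE 0.66).

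PER3, the period gene least needed for the loop in mice, gave opposite signs with its 2 probe sets. The brightest stood at 8.18, 7.25 and 8.02 in treated retinas and at 8.25, 7.26 and 7.71 in control retinas. The log2 fold change was 0.080, with an SE of 0.20 (adjusted p = 0.947, limma). The other stood at 7.62, 6.54 and 7.31 in treated retinas and at 8.32, 7.26 and 6.40 in control retinas, for −0.17 (SE 0.37). In neither did the treated retinas separate from the controls.

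CRY2 is a cryptochrome that inhibits the activator pair. Its signals were 10.35, 10.98 and 10.82 in treated retinas, against 10.38, 10.76 and 10.99 in control retinas. The log2 fold change was 0.0056 (SE 0.11), with a 95% interval of −0.25 to 0.26 (adjusted p = 0.994, limma). Of the members of this limb it was the one whose change was bounded most closely.

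NR1D1, the nuclear receptor that represses ARNTL, also disagreed between its probe sets. The brightest gave 9.89, 9.91 and 9.62 in treated retinas, against 9.95, 9.59 and 9.71 in control retinas. The change was 0.059 on the log2 scale, with an SE of 0.13 (adjusted p = 0.936, limma). The other gave 5.04, 2.41 and 5.37 in treated retinas, against 5.61, 5.77 and 6.25 in control retinas. On this dim probe set all 3 treated retinas lay below all 3 control retinas. The treated retina of replicate 2 carried most of the log2 fold change of −1.60 (SE 0.73, 95% interval −3.30 to 0.091, adjusted p = 0.751, limma). Its array had the lowest median, 6.44, and 29.7% of its probe sets were under a log2 signal of 5. On the other arrays 22.6% to 25.9% were. In replicate 2 the median difference was −0.14 over all probe sets and −0.81 over the second probe sets of clock genes. The part of this array in the dim differences was not tested.

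**Figure D2:**
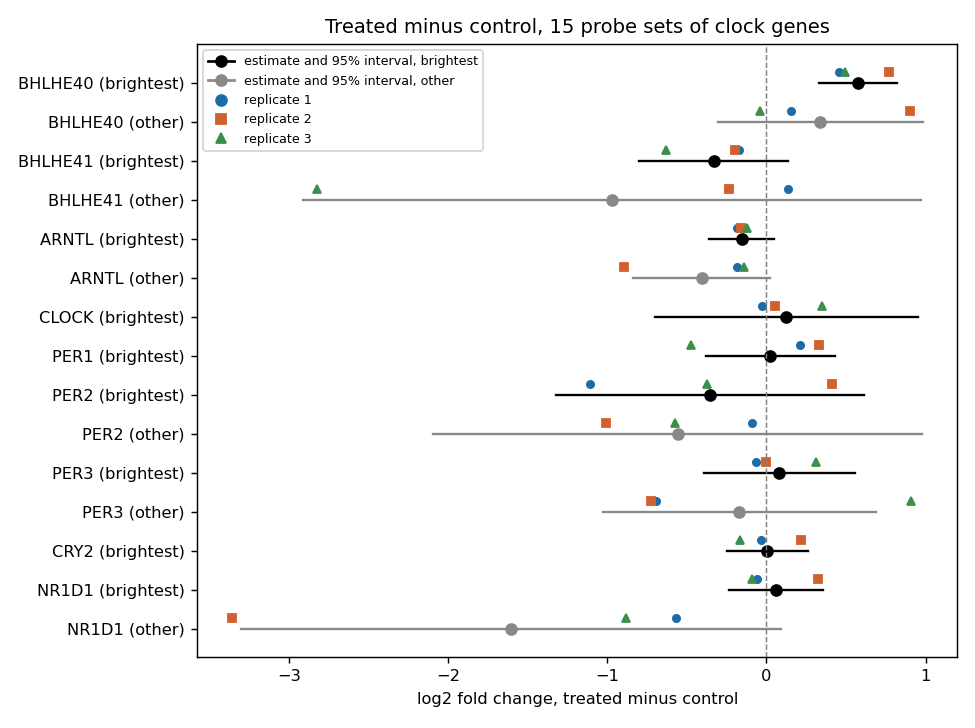
Log2 fold change, treated minus control (x axis), of the 15 probe sets (y axis), with the estimate and its 95% interval in black for brightest and grey for other probe sets and the 3 pairs as coloured symbols above. Only the interval of the brightest BHLHE40 probe set, 0.33 to 0.82, lies wholly on one side of 0.

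Over the 15 probe sets, 0 passed at an adjusted p under 0.05 in limma, where 0.111% of all probe sets did. Before adjustment, limma put 1 of them under 0.05 as higher, where 2.97% of all probe sets were, and 0 as lower, where 3.77% were. Before adjustment, the methods' t-test called BHLHE40 higher and ARNTL lower, 1 each of 15, against 2.68% and 2.88% of all probe sets, and 0 after it. Treated retinas lay wholly above control retinas for 1 probe set, against 3.11% of all, and wholly below for 1, against 3.53%. With 15 probe sets, these counts are near the background.

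The same direction in all 3 pairs was found upward for 1 of the 15 probe sets, against 13% of all, and downward for 5, against 16.1%. The 5 were both probe sets of ARNTL, the brightest of BHLHE41, the dim one of PER2 and the dim one of NR1D1. These orders depended on the scaling. With arrays centred on their median, the brightest probe sets of ARNTL and BHLHE41 were each higher in 1 pair, and CLOCK was higher in 3 of 3. The second ARNTL probe set and the dim ones of PER2 and NR1D1 were still lower in each pair. Fold changes below 0 were given by 8 of 15, against 54.6% of all probe sets. The median log2 fold change was −0.16 over the 15 probe sets and −0.038 over all 52024. With 1 probe set per gene it was 0.024 for the 9 clock genes and 0.032 for all named genes.

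More of these probe sets differed between replicate numbers than between sides, as over the whole array. There, 6950 probe sets differed between replicate numbers after adjustment, and 58 between sides. Differences between animals and technical differences between their arrays cannot be told apart here. Of the 15 probe sets, 4 differed between replicate numbers at an adjusted p under 0.05 (limma F-test, fitted together with the treatment), against 13.4% of all probe sets, and 8 did so at an unadjusted p under 0.05, against 28.9%. The 4 were CLOCK, the brightest probe set of BHLHE41, and the second probe sets of ARNTL and BHLHE40. CLOCK averaged 8.14, 6.003 and 5.10 over both retinas of replicates 1 to 3 (adjusted p = 0.0101, limma F-test). BHLHE41 averaged 9.24, 7.37 and 7.07 (adjusted p = 0.00393), the second probe set of ARNTL 10.12, 7.999 and 8.24 (adjusted p = 0.00316) and that of BHLHE40 8.65, 6.73 and 6.61 (adjusted p = 0.0126). In each, both retinas of replicate 1 lay above the other 4 retinas, as in 48% of all probe sets that passed this test. Among the 9 brightest probe sets, 2 passed, against 16.3% of the brightest probe sets of all genes, and among the 6 others 2 passed, against 17.9% of second and further probe sets. In a fit without the variance trend, 0 of the 15 passed after adjustment and 6 before it.

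Both retinas of replicate 1 lay above the other 4 in 8 of the 15 probe sets, against 22.6% of all, and below them in 2, PER1 and CRY2, against 14.4%. Among brightest probe sets this was 3 above and 2 below of 9, against 17.6% and 23.2% over all genes. PER1 averaged 8.88, 9.47 and 9.65 in replicates 1 to 3 and CRY2 10.36, 10.87 and 10.91, with adjusted p = 0.0940 and 0.0508 (limma F-test). Replicate 1 was the highest animal not for the activator CLOCK alone but also for the repressors BHLHE41 and PER3, by both probe sets of each. Probe sets of 1 gene disagreed on the order of animals. The brightest ARNTL probe set averaged 11.44, 11.47 and 11.68, so that replicate 1 minus the mean of the others was −0.14 by that probe set and 1.996 by the other. For BHLHE40 the same differences were 0.16 and 1.98, and for PER2 0.19 and 2.04.

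The scale of the whole array moved with the animal too. The arrays of replicate 1 had the highest medians of their groups, 6.98 treated and 7.03 control, and over all probe sets replicate 1 lay a median of 0.14 above the others. After quantile normalization, both retinas of replicate 1 lay highest for 6 of the 15 probe sets. The share of all probe sets after that scaling is not given here, and the 22.6% above is for the deposited values. Without replicate 1, 0 of 15 probe sets differed between replicates 2 and 3 at an adjusted p under 0.05 (limma), and 80 of all probe sets did.

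**Figure D3:**
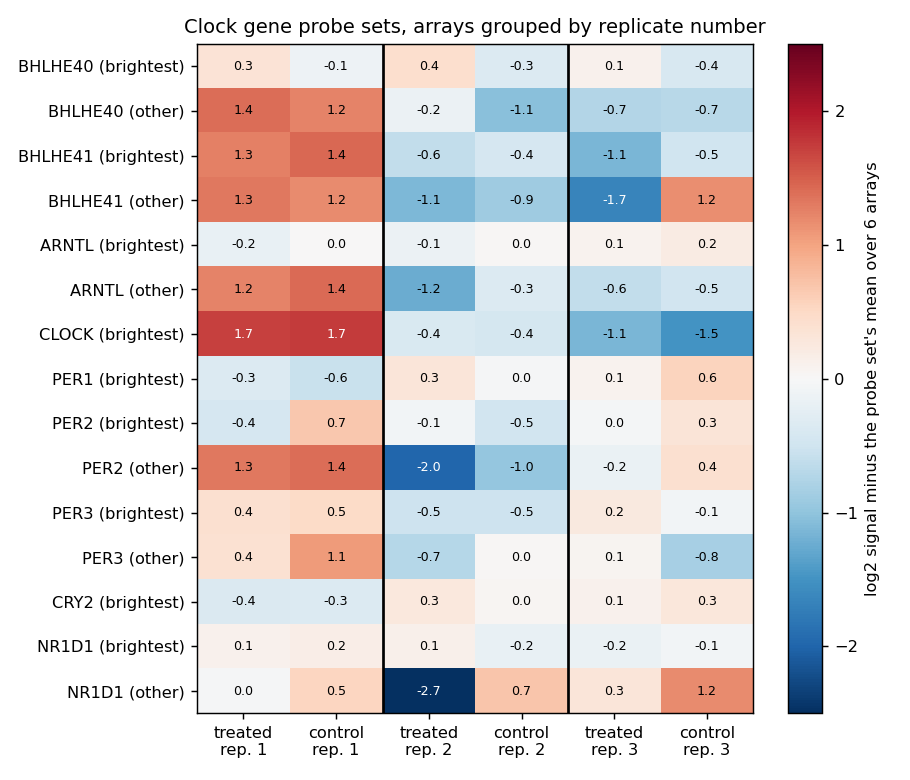
Log2 signal of each array minus the mean of the probe set over 6 arrays (color scale and printed numbers), for 15 probe sets (rows) and 6 arrays grouped by replicate number (columns, treated left of control). CLOCK, BHLHE41 and the second probe sets of ARNTL, BHLHE40 and PER2 are more than 1 log2 unit above their mean in both retinas of replicate 1.

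The 5 named genes whose signals followed those of BHLHE40 most closely over the 6 arrays were KLF6, a zinc finger transcription factor of injury responses, GADD45B, a stress and DNA damage gene, IRF1, a transcription factor of interferon signalling, VTN, the adhesion protein vitronectin, and IFI16, an interferon-induced sensor of DNA. Pearson's r with the brightest BHLHE40 probe set was 0.992, 0.992, 0.990, 0.987 and 0.987, as a description over 6 arrays in 3 pairs, among 7740 genes with enough signal and spread. Of those, 46 had an r over 0.95. The arrays share their treatment, so this measure favors genes that differ between the groups. KLF6 gave 11.55, 11.70 and 11.34 in treated retinas, against 10.87, 10.68 and 10.51 in control retinas. It rose by 0.84 in treated retinas, in each of 3 pairs (SE 0.10, adjusted p = 0.0450, limma). GADD45B and VTN rose as well, by 1.65 and 1.26 (adjusted p = 0.0238 and 0.0128, limma). IRF1 and IFI16 stood at 1.07 and 0.66 and did not pass (adjusted p = 0.368 and 0.655). These calls, like those of GFAP and the interferon genes given further on, need the paired fit with a variance trend: by the methods' t-test, without the replicate block or without the trend, 0 probe sets were higher after adjustment, against 57.

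None of the other clock genes followed BHLHE40 in this way. The r of their brightest probe sets with it lay between −0.81 for ARNTL and 0.55 for NR1D1 over the same 6 arrays. By these probe sets, BHLHE40 in the treated retinas was highest in replicates 2 and 1, and ARNTL was lowest in those 2 treated retinas. The control retinas of replicates 1 and 2 were also the lower controls for ARNTL, at 11.53 and 11.56 against 11.74 in replicate 3. By the second ARNTL probe set, the treated retina of replicate 1 was the highest treated one, at 10.03 against 7.55 and 8.17.

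**Figure D4:**
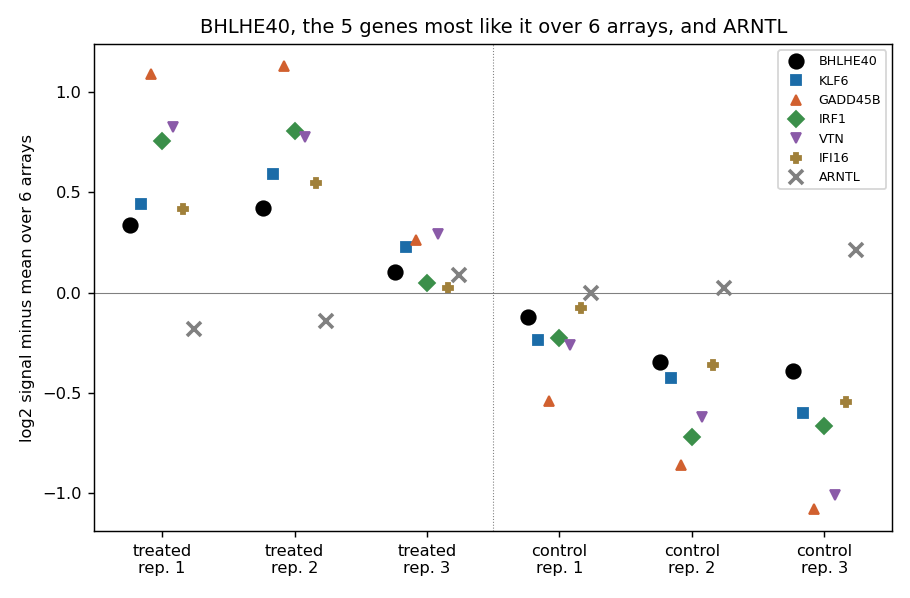
Log2 signal of BHLHE40, of the 5 genes most like it and of ARNTL, each minus its mean over 6 arrays (y axis), by array (x axis, treated left of control). BHLHE40 and the 5 genes lie above 0 in the 3 treated retinas and below 0 in the 3 control retinas, and ARNTL lies below 0 in the treated retinas of replicates 1 and 2.

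Genes elsewhere in the clock did not pass the test either. Of 8 measured genes of the wider loop, 0 passed in limma after adjustment, where 0.212% of the brightest probe sets of all genes did. Before adjustment limma put 0 of them under 0.05 as higher and 1 as lower, against 5.02% and 3.01% of all genes, and the methods' t-test called 0. RORA, an orphan nuclear receptor that activates ARNTL, was the 1 lower gene. It gave 9.50, 10.37 and 10.85 in treated retinas, against 9.81, 11.02 and 11.04 in control retinas. By this brightest probe set each treated retina was below the control retina of its animal. The log2 fold change was −0.38, with an SE of 0.12 (adjusted p = 0.676, limma). The second RORA probe set stood at −0.26 (SE 0.13, unadjusted p = 0.0902, limma) and was higher in 1 of 3 pairs. RORB, the related receptor of photoreceptor development, stood at −0.46 (SE 0.21, adjusted p = 0.748), also lower in 3 of 3 pairs, and TIPIN, a protein of the replication fork that binds TIMELESS, at 0.27 (SE 0.16, adjusted p = 0.754). The median of the 8 genes was 0.13.

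Between animals, 3 of the 8 genes passed the F-test, against 16.3% of the brightest probe sets of all genes, and 0 of all probe sets passed it without the variance trend. RORA averaged 9.66 in replicate 1 and 10.69 in replicate 2, whereas RORB averaged 11.37 and 8.70. CIART, a repressor of the activator pair, averaged 9.37 and 10.15 and is named here after its values were seen. Replicate 1 was therefore the lowest animal for RORA and CIART and the highest for RORB.

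Of 12 enzymes and adaptors that modify clock proteins, 0 passed in limma either before or after adjustment. The methods' t-test put 1 under 0.05 as lower before adjustment, against 2.88% of all probe sets. It was SIRT1, a deacetylase named here after its values were seen, at −0.11. CSNK2B, a subunit of casein kinase 2, stood at 0.26, GSK3B, a kinase that acts on several clock proteins, at −0.31, and BTRC, which marks PER proteins for destruction, at −0.38 (adjusted p = 0.745, 0.752 and 0.787, limma). The second BTRC probe set had the opposite sign, at 0.40 (SE 0.39, adjusted p = 0.838, limma). By brightest probe sets, the median of this list was −0.026.

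Of 11 genes by which the retinal clock is read or set, 0 passed in limma after adjustment. Before adjustment 2 were lower and 0 higher, against 3.01% and 5.02% of all genes, and the methods' t-test called 0. ASMT, the last enzyme of melatonin synthesis, gave 8.05, 7.34 and 8.09 in treated retinas, against 8.80, 7.49 and 8.73 in control retinas. It was lower in 3 of 3 pairs and stood at −0.51 with an SE of 0.20 (adjusted p = 0.730, limma). MTNR1B, a melatonin receptor, gave 4.95, 5.63 and 4.75 in treated retinas, against 5.90, 6.59 and 6.81 in control retinas. These signals are dim, and the groups did not overlap (log2 fold change −1.32, SE 0.49, adjusted p = 0.727). MTNR1A, the other melatonin receptor of the list and named after its values were seen, stood at 0.30 (SE 0.52, adjusted p = 0.916). DRD2, a dopamine receptor, stood at 0.26 (SE 0.14, adjusted p = 0.752), and AANAT, the enzyme that paces melatonin synthesis and is named here after its values were seen, at 0.18 (SE 0.14, adjusted p = 0.801). AANAT was also among the 5 of 11 genes that differed between animals by the F-test, where 16.3% of all genes did, with ASMT, DRD4, RASD1 and WEE1, and averaged 11.73, 12.24 and 12.66 in replicates 1 to 3.

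PER1 and BHLHE40 also answer to stress hormones and low oxygen, so 2 lists of such genes were set beside them. Of 8 glucocorticoid-induced genes, 0 passed in limma after adjustment. Before it, limma had 1 higher and 2 lower, against 5.02% and 3.01% of all genes. The methods' t-test had 1 lower, PDK4, against 2.88% of all probe sets. MT2A, a metal-binding metallothionein, stood at 0.72 with an SE of 0.14, above 0 in each pair (adjusted p = 0.277, limma), and PDK4, a brake on glucose oxidation, and SGK1, a kinase, at −0.92 and −0.28, lower in 3 of 3 pairs each (adjusted p = 0.388 and 0.730). The list had a median of −0.18. Of 14 hypoxia-induced genes listed, 8 were measured, and VEGFA, NDRG1, BNIP3 and EGLN3 were among those missing. By brightest probe sets, 0 of the 8 passed in limma before or after adjustment. Another probe set of KDM3A, named here after its values were seen, stood at −0.37 (unadjusted p = 0.0237, adjusted p = 0.716, limma). The methods' t-test had 1 lower before adjustment, PFKFB3, against 2.88% of all probe sets, and the median of the 8 genes was −0.059. P4HA1, DDIT4 and PFKFB3, an enzyme of collagen synthesis, a growth inhibitor and a regulator of glycolysis, stood at −0.21, −0.21 and −0.13.

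Some lists of other cells and responses are given beside BHLHE40, by the brightest probe set of each gene. At an unadjusted p under 0.05 in limma the share of all genes was 5.02% higher and 3.01% lower, and after adjustment 0.212% passed. The methods' t-test called 2.68% of all probe sets higher and 2.88% lower before adjustment. Of all probe sets, 54.6% had log2 fold changes below 0, and the share among brightest probe sets is not given here. The summed linear signal of 8 reactive glia markers was 35304 to 54458 in treated retinas and 16196 to 23562 in control retinas, and 7 of the 8 had log2 fold changes above 0. GFAP, the filament of reactive glia, rose by 2.14 (adjusted p = 0.0303, limma) and was the 1 of the 8 to pass by its brightest probe set. Further probe sets of SERPINA3, CP and TIMP1, an acute-phase inhibitor, ceruloplasmin and a metalloproteinase inhibitor, passed as well, at 1.69 to 3.03. Others of SERPINA3 stood at −0.098 and 0.074 and another of TIMP1 at 0.020, and these did not pass. By brightest probe sets, CP, OSMR and STAT3 stood at 1.82, 1.07 and 0.57. SERPINA3, TIMP1 and LCN2 stood at 0.065, 0.041 and 0.0019, and CD44 at −0.10, all given after their values were seen. Another LCN2 probe set stood at 1.37, higher in 3 of 3 pairs (adjusted p = 0.0787, limma), and the rest of LCN2 at −0.063 and 0.13. The median of the 8 markers was 0.32, and their sum weighs the brightest probe set, that of CP, most. For 12 interferon-stimulated genes the sums were 12632 to 17579 in treated retinas and 8888 to 10369 in control retinas, with 10 of 12 above 0. ISG15, MX1, IFIT3 and IFI27, all interferon-induced, made up the 4 that passed. For 10 microglia and leukocyte markers they were 2930 to 3266 in treated retinas and 2342 to 2774 in control retinas, with 7 of 10 above 0, 0 past the adjusted threshold, 5 under 0.05 before adjustment and 2 by the methods' t-test. The 9 measured RGC markers were all above 0, with a median of 0.26, though 0 passed after adjustment, 6 before it and 4 by the methods' t-test. Their sums were 35558 to 45569 in treated retinas and 30468 to 36543 in control retinas. For 6 pigment epithelium markers, 6 were below 0 with a median of −0.42, 0 passed before or after adjustment, and the sums were 4582 to 7385 in treated retinas and 5576 to 8971 in control retinas. All 5 rod markers were below 0, with a median of −0.13, and 0 passed after adjustment, 1 before it and 3 by the methods' t-test. Of 6 Muller glia markers, 0 passed after adjustment, and before it 1 was higher and 3 lower, as also by the methods' t-test. RLBP1, a retinoid carrier of these cells, stood at −0.45 (adjusted p = 0.270, limma). No marker of these lists was at 0 on any array. Their part in the BHLHE40 difference was not tested.

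**Figure D5:**
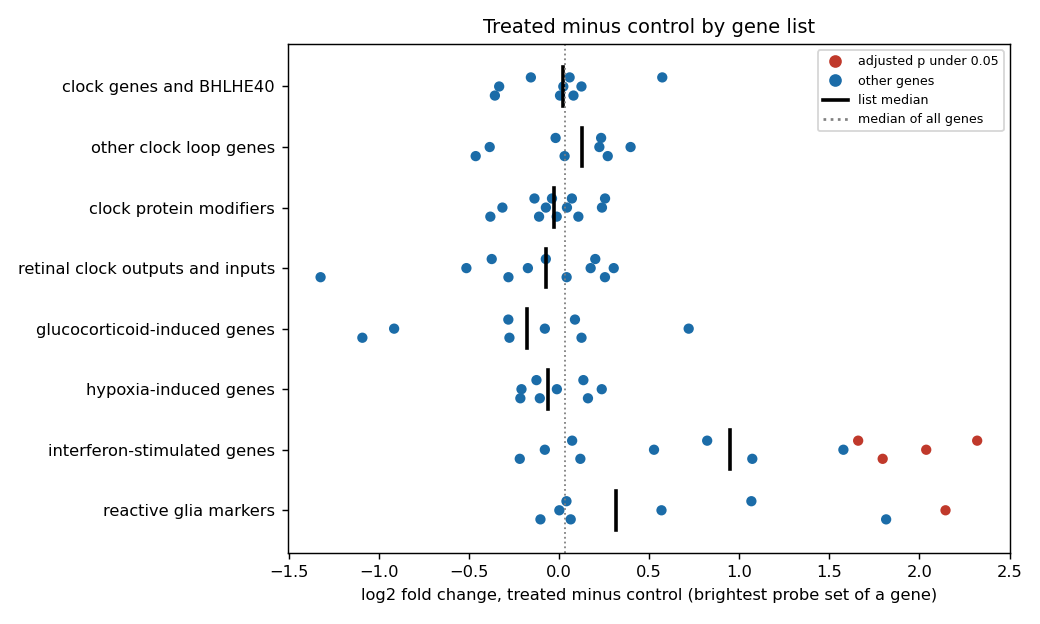
Log2 fold change, treated minus control (x axis), of the brightest probe set of each gene in 8 lists (rows), with the list median as a black bar and the median of all genes, 0.032, as a dotted line. The clock lists lie around the dotted line with 0 genes past the adjusted threshold, whereas interferon-stimulated genes and reactive glia markers hold 4 and 1 such genes.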

How the data were processed

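RNA of 3 treated and 3 control retinas was hybridized to 1-color arrays. The authors computed MAS5 signals, scaled within each array, and the deposited values are their log2, with a lowest value of 0. The 2% trimmed mean of linear signals was 505.3 to 505.8 on the 6 arrays. The number of arrays limits precision. No MAS5 version is stated in the sources used.

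Treated minus control was fitted for all 52024 probe sets in limma 3.58.1 (R 4.3.3, lmFit and eBayes, variance trend), blocking on the replicate number, and p-values were adjusted over the whole table (Benjamini-Hochberg). A moderated F-test of the replicate terms came from the same fit. Array control probe sets were left out, with no other filter or normalization. The fit was tested on simulated data. After adjustment it recovered 7.35% of simulated log2 changes of 0.5, 39.4% of those of 1 and 50% of those of 2, with 9 false calls. The changed probe sets were drawn at random, bright and dim. These shares therefore do not say how often such a change would be missed for a bright probe set like that of BHLHE40. Alternatives were a paired test of each probe set on its own (called the methods' t-test), fits without the block or the trend, quantile or median scaling, a filter on dim probe sets, the mean of a gene's probe sets, and leaving out each replicate.

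The numbers were taken as pairs, since the methods compare both retinas of a monkey. Deviations from group means correlated at 0.357, 0.137 and 0.161 within numbers and between −0.243 and 0.104 across them. An exact sign-flip test of 3 pairs cannot give a p under 0.25 and was not used.

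Probe sets were named by the platform annotation, updated by gene identifier (98.6% of 24956 with 1 symbol matched). No genome was used. The members and lists were chosen with earlier results of these data known. All member probe sets are given, and in each other list the 3 genes with the largest moderated statistic, plus any past the adjusted threshold, could be named. The genes most like BHLHE40 were the 5 with the highest r among brightest probe sets above the median signal and with an SD of at least that of BHLHE40 divided by 2. Plots were made in matplotlib 3.10.9 (Python 3.11.15).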

Additional observations from a re-analysis of the deposited data

How the results depend on the processing

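In each alternative run, 0 of the 15 clock gene probe sets passed the treatment test after adjustment. BHLHE40 kept its direction in 10 of 10 alternatives, with log2 fold changes of 0.46 to 0.67, unadjusted p of 2.44e-04 to 0.0341 and adjusted p of 0.0556 (without replicate 2) to 0.99994 (no replicate block, limma). BHLHE41, ARNTL and CLOCK kept their sign throughout, while PER1, PER2, PER3, CRY2 and NR1D1 changed sign in 1 or 2 alternatives each. The mean of both probe sets was −0.77 for NR1D1 and −0.28 for ARNTL, with unadjusted p of 0.0328 and 0.0464 and adjusted p of 0.730 and 0.736 (limma). The NR1D1 mean includes the dim probe set, whose lowest signal was in the treated retina of replicate 2. With arrays centred on their median ARNTL was −0.059. Clock gene probe sets lower before adjustment numbered 0, against 1 by the methods' t-test and 0 to 2 on leaving out a replicate (2 without replicate 3, the second probe sets of ARNTL and PER3).

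Over all probe sets, 57 were higher and 1 lower after adjustment. Without the replicate block, by the methods' t-test and without the variance trend, these counts were 0 and 0. Quantile normalization gave 2 lower. Leaving out a replicate gave 17 to 166 higher and 0 to 56 lower. Before adjustment, 1544 were higher and 1962 lower, against 674 and 601 without the replicate block, 1143 lower with arrays centred on their median, and 983 to 1963 higher and 1227 to 3122 lower on leaving out a replicate. Fewer samples enter the fits that leave one out, and the other causes were not tested.

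For differences between replicate numbers, 4 clock gene probe sets and 6950 of all passed after adjustment. Without the variance trend both counts were 0, with 6 and 9580 before adjustment. Leaving out a replicate, an alternative chosen after seeing the data, gave 0 to 7 clock gene probe sets and 80 to 12397 of all, with the lowest counts without replicate 1. Centring the arrays on their median moved the median treatment difference of all probe sets to 0.059, against −0.038 as deposited. Dim probe sets limit what could be seen: 4 of the 15 had an array under a log2 signal of 5.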
